A study of Mus musculus with 26 samples.

Results

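Cluster uc012ath.2 was the most counted transcript cluster in all 12 libraries of RNA precipitated with hnRNPK from mouse liver. It took 18.6% to 41.2% of the counts in the nuclear immunoprecipitates (IP), 12.2% to 28.8% in the cytoplasmic IP and 0.876% to 5.14% in total RNA. Rank 1 by count was not particular to the hnRNPK precipitates. The nuclear and cytoplasmic control IgG libraries gave this cluster rank 1 as well, at 16.5% and 17.4% of their counts. A cluster is the set of transcripts that share a gene number in the deposited tables. This one, number 12133, holds 1 transcript of 5818 nt, 1 of 59121 transcripts and 1 of 31469 clusters, and so has no division among isoforms. It was chosen by its expected counts, as the cluster with the most counts in every IP library. Its levels in IP, and IP set against total RNA, are therefore given as a description with no test. The differences between mouse groups, and between the nuclear and cytoplasmic IP, were not used to choose it and were tested. The deposited tables give no gene name, sequence or genome position for it, so it is called by its identifier. Whether it is a messenger RNA, a ribosomal RNA or another class of RNA is not given there either, and its share of a library is a share of counts in an RNA of unknown class.

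The leptin-deficient mice, called ob/ob here, were of strain B6.V-Lepob/J and ate normal diet. This strain lacks leptin throughout the body and becomes obese. The high-fat diet group was C57BL/6J mice, and the wild-type group was C57BL/6J mice on normal diet. Every library came from liver, and the ages of the mice are not given in the sources used here. Each of the 3 mouse groups had 2 nuclear IP libraries, 2 cytoplasmic IP libraries and 4 total RNA libraries, 2 for each replicate number. Control IgG had 1 nuclear and 1 cytoplasmic library from mixed strains and diets. These 2 libraries are taken as IgG from their titles, while their molecule type is labelled as hnRNPK-bound, so each ratio of IP to IgG rests on the titles. Nothing in the labels shows that each replicate was its own animal, so p-values here cover the spread between samples, part or all of which may be technical. In tissue RNA, fewer cells of a type and less RNA per cell cannot be told apart. Hepatocyte markers could not be checked without gene names.

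hnRNPK is a heterogeneous nuclear ribonucleoprotein that binds RNA through KH domains, with a preference for stretches rich in C. It moves between nucleus and cytoplasm and takes part in transcription, splicing, RNA stability and translation. In an RNA immunoprecipitation, an antibody on beads holds the protein with its RNA, and beads with control IgG show which RNA is held without that antibody. Here the extracts were passed over IgG beads before the hnRNPK antibody, per the labels' protocols. Total RNA was not the input of either extract, so IP against total RNA also includes the fractionation.

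Library totals were 5336060 to 10581089 counts in nuclear IP, 8834063 to 12068891 in cytoplasmic IP, 3116786 in nuclear IgG, 338469 in cytoplasmic IgG and 25597307 to 41731910 in total RNA. At this depth the exact 95% binomial interval of the cluster's share was at most 0.042 percentage points to either side in an IP library and 0.13 in cytoplasmic IgG. These intervals cover counting error only.

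In the nuclear IP, uc012ath.2 took 21.8% and 22.4% of the counts of the ob/ob libraries, 29.5% and 41.2% of the high-fat diet libraries, and 18.6% and 21.6% of the wild-type libraries. Both high-fat diet libraries lay above the other 4. The library with the largest share, high-fat diet replicate 2, was also the smallest nuclear IP library, with 5336060 counts. The largest, wild-type replicate 1 with 10581089 counts, had the smallest share. Between these, ob/ob replicate 1 with 5517528 counts had 21.8%, near the 21.6% of wild-type replicate 2 with 8834174 counts. Whether depth had a part in the shares was not tested.

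In the cytoplasmic IP, the cluster took 12.2% and 15.8% of the counts with ob/ob, 13.7% and 28.8% with high-fat diet, and 24.3% and 12.5% with wild type. In high-fat diet and wild type the replicates were farther apart than any 2 group means. High-fat diet replicates differed by 2.09-fold, which ranked 22 by size among 3152 clusters whose mean log2 CPM (log2 of counts scaled to the library total) was 5 or more. Wild-type replicates differed by 1.96-fold, which ranked 171, and ob/ob replicates by 1.29-fold. In the nuclear IP the replicates differed by 1.03-fold (ob/ob), 1.39-fold (high-fat diet) and 1.16-fold (wild type), which ranked 2811, 1755 and 1837 among these clusters. The median absolute log2 gap of these clusters was 0.51 in nuclear IP of high-fat diet, against 0.22 in ob/ob and 0.26 in wild type.

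**Figure D1:**
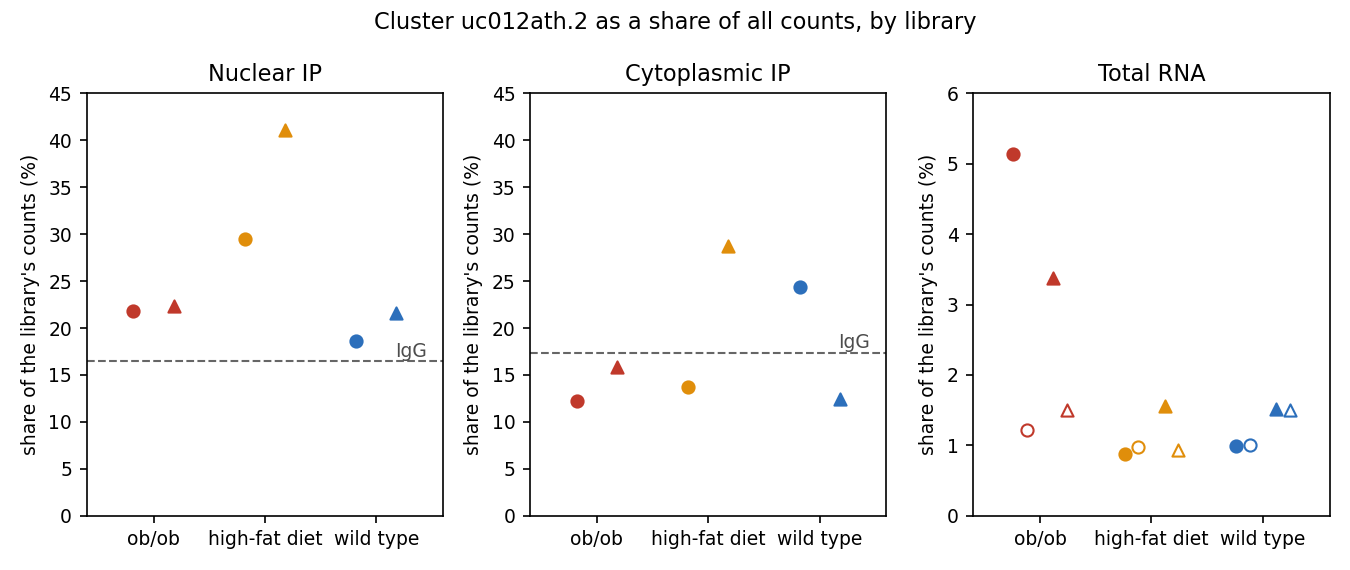
Share of each library's counts taken by uc012ath.2, in percent, in nuclear IP, cytoplasmic IP and total RNA, with a smaller vertical scale for total RNA. Circles are replicate 1 and triangles replicate 2, filled and open symbols in total RNA are the libraries numbered 1 and 2, and dashed lines are the IgG library of that compartment, at 16.5% in the nucleus and 17.4% in the cytoplasm. All 6 nuclear IP libraries sit above their IgG line, and 2 of the 6 cytoplasmic IP libraries do.

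The IgG libraries held the cluster at similar shares, and in each of them its rank by count was 1. Nuclear IP libraries had 1.13-fold to 2.50-fold the share of nuclear IgG, which was 16.5%, and 6 of 6 lay above it. Cytoplasmic IP libraries had 0.705-fold to 1.66-fold the share of cytoplasmic IgG, which was 17.4%. Only 2 of the 6 cytoplasmic libraries, wild-type replicate 1 and high-fat diet replicate 2, lay above it. With 1 IgG library per compartment these ratios have no test. Shares compare the make-up of libraries and say nothing of the amount of RNA on the beads.

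In total RNA, the 2 libraries of ob/ob replicate 1 had 5.14% and 1.22%, and those of ob/ob replicate 2 had 3.38% and 1.50%. The high-fat diet libraries had 0.876% and 0.975% for replicate 1 and 1.55% and 0.928% for replicate 2. The wild-type libraries had 0.997% and 0.998% for replicate 1 and 1.52% and 1.50% for replicate 2. Apart from the 2 ob/ob libraries numbered 1, all lay between 0.876% and 1.55%, and the mouse groups overlapped. The cluster ranked from 2 to 10 by count in total RNA, always below uc008yaz.2, the most counted cluster of each total RNA library with 4.37% to 6.53%.

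The nuclear IP share was 8.37-fold to 37.5-fold the mean total RNA share of the same mouse group, and the cytoplasmic IP share 4.71-fold to 26.2-fold. The lowest ratios in both compartments belonged to ob/ob, which also had the highest total RNA mean, 2.60% ± 0.26 (SD, n = 2), against 1.10% ± 0.24 for high-fat diet and 1.25% ± 0.36 for wild type. These SDs are between units of summed libraries and leave out the gaps inside a unit. The ob/ob libraries numbered 1 had 5.14% and 3.38%. Those numbered 2 had 1.22% and 1.50%, within the 0.997% to 1.52% of the wild-type libraries. All ob/ob ratios use the mean over both. The mouse groups shared no order across the 3 kinds of library. The mean share was highest in high-fat diet in both IPs and in ob/ob in total RNA.

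Counts grow with transcript length, so levels between clusters are compared in the authors' TPM, which is per length. In TPM uc012ath.2 was not the leading cluster of any library. Its rank was 2 in every nuclear IP library and in both IgG libraries, 2 to 4 in cytoplasmic IP, and 7 to 50 in total RNA. Its level was 53880 to 117782 TPM in nuclear IP, 28700 to 71689 TPM in cytoplasmic IP and 2574 to 15196 TPM in total RNA. The first place in each IP and IgG library belonged to uc029sug.1, of 532 nt, with 130507 to 414101 TPM in nuclear IP and 74261 to 206630 TPM in cytoplasmic IP. In nuclear IP of high-fat diet replicate 2, uc029sug.1 and uc012ath.2 took 41.4% and 11.8% of all TPM.

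The cluster also set how many counts were left for every other cluster. Outside it there remained 3140048 to 8607921 counts in nuclear IP, 6814351 to 10592086 in cytoplasmic IP and 24282489 to 41082991 in total RNA. Where another cluster keeps its proportion among the remaining counts, its share of the whole library is lower by the log2 of the part outside. That shift was -0.76 to -0.30 in nuclear IP, -0.49 to -0.19 in cytoplasmic IP and -0.076 to -0.013 in total RNA. The largest nuclear shift was that of high-fat diet replicate 2.

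Mouse groups were compared with edgeR's quasi-likelihood test after TMM scaling. The libraries of a replicate number were summed, and p-values were adjusted by Benjamini-Hochberg over all clusters tested, with a threshold of 0.05. In total RNA, uc012ath.2 had a log2 fold change of 0.96 ± 0.36 (SE) between ob/ob and wild type, with an edgeR adjusted p of 0.16. In this comparison 1.58% of 15487 clusters passed. Between ob/ob and high-fat diet it was 1.28 ± 0.36, with an edgeR adjusted p of 0.13 where 0.491% passed. Between high-fat diet and wild type it was -0.31 ± 0.35, with an edgeR adjusted p of 0.80, and turned to 0.081 without wild-type replicate 2. Here 0% of clusters passed with edgeR, while 1527 had an unadjusted p under 0.05 and DESeq2 called 320 (2.07%). DESeq2 called the ob/ob differences from wild type and from high-fat diet, with adjusted p of 0.010 and 0.00030, but it also called 13.6% and 9.25% of all clusters in these comparisons. The comparison with high-fat diet was also called when each library stood as its own replicate (edgeR adjusted p = 0.020). That setting counts both libraries of a replicate number as separate replicates, and 33.5% of 14564 clusters passed under it.

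The total RNA difference between ob/ob and wild type had a different size in each library series. With the libraries numbered 1 alone, the log2 fold change was 1.71, and with those numbered 2 alone it was 0.016 (edgeR adjusted p = 0.10 and 0.98). Between ob/ob and high-fat diet these values were 1.87 and 0.55 (edgeR adjusted p = 0.12 and 0.33). The labels do not say what the second number of a library means.

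The gap between the libraries of one replicate number was 4.20-fold in ob/ob replicate 1 and 2.25-fold in ob/ob replicate 2, each time higher in the library numbered 1. High-fat diet replicate 2 had a gap of 1.68-fold in the same direction. In these 3 of 6 pairs uc012ath.2 was the farthest apart of these 3152 clusters, whose median absolute log2 gap was 0.096, 0.037 and 0.053. In high-fat diet replicate 1 it was higher in the library numbered 2, by 1.11-fold. The wild-type pairs differed by 1.00-fold and 1.01-fold. Total counts in ob/ob replicate 1 were 25597307 in the library numbered 1, the smallest of the 12, and 38611819 in the library numbered 2.

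**Figure D2:**
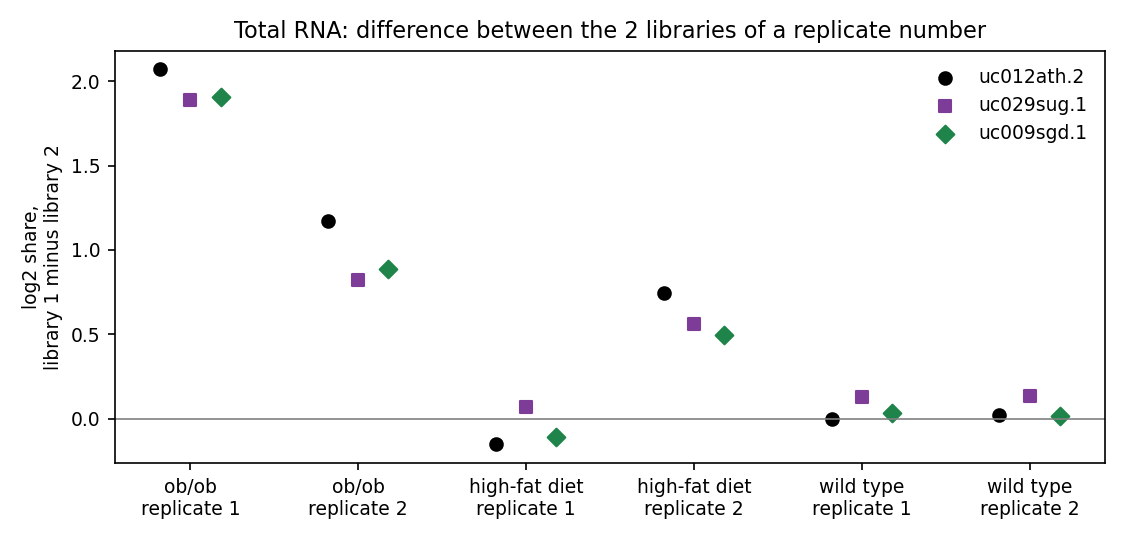
Difference in log2 share of counts between the library numbered 1 and the library numbered 2, for each of the 6 replicate numbers of total RNA. Circles are uc012ath.2, squares uc029sug.1 and diamonds uc009sgd.1. All 3 clusters lie highest in ob/ob replicate 1, at 1.89 to 2.07 on the log2 scale, and between -0.15 and 0.13 in high-fat diet replicate 1 and both wild-type replicates.

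In the cytoplasmic IP no comparison of mouse groups passed for this cluster. The log2 fold change was -0.52 ± 0.55 between ob/ob and wild type, where 12.8% of 13516 clusters passed. It was 0.38 ± 0.55 between high-fat diet and wild type, where 1.85% passed, and -0.90 ± 0.56 between ob/ob and high-fat diet, where 3.57% passed. The edgeR adjusted p was 0.59, 0.76 and 0.40 in that order. The direction rested on single libraries. Without high-fat diet replicate 2 the high-fat diet difference from wild type was -0.54 and that of ob/ob from high-fat diet 0.073. Without wild-type replicate 2 the high-fat diet difference from wild type was -0.016, and without wild-type replicate 1 the ob/ob difference from wild type was 0.031.

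In the nuclear IP the high-fat diet libraries were the highest. The log2 fold change between high-fat diet and wild type was 1.28 ± 0.56, with an edgeR adjusted p of 0.18 where 5.37% of clusters passed, while DESeq2 called it with 1.34 and an adjusted p of 0.043, along with 10.8% of all clusters. By library size without TMM scaling it was 0.81 (edgeR adjusted p = 0.22), and without high-fat diet replicate 2 it was 0.73 with TMM scaling. Without high-fat diet replicate 1 it was 1.69. Between ob/ob and high-fat diet it was -1.24 ± 0.56, with an edgeR adjusted p of 0.24 where 3.00% passed. By library size it was -0.68. It was -0.65 without high-fat diet replicate 2 and -1.64 without high-fat diet replicate 1. Between ob/ob and wild type it was 0.045 ± 0.552, with an edgeR adjusted p of 0.97 where 13.7% passed, and -0.085 without wild-type replicate 1.

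Whether the IP difference between mouse groups departed from that in total RNA was tested as a double difference, IP minus total RNA in one mouse group less the same in wild type. For cytoplasmic IP the log2 value was -1.45 ± 0.78 for ob/ob minus wild type and 0.73 ± 0.78 for high-fat diet minus wild type, with edgeR adjusted p of 0.48 and 0.81. For nuclear IP it was -0.89 ± 0.78 and 1.64 ± 0.79, with edgeR adjusted p of 0.69 and 0.49. With edgeR, calls were rare in these 4 tests, at 0.0074%, 0.0074%, 0.0148% and 0.0296% of 13516 clusters. DESeq2 called 2.96%, 1.72%, 2.54% and 1.79% in the same order, and uc012ath.2 was not among them. The ob/ob values differed in size between the total RNA library series. The cytoplasmic value was -2.15 with the libraries numbered 1 and -0.50 with those numbered 2, and the nuclear value -1.58 and 0.065. Without cytoplasmic high-fat diet replicate 2 the cytoplasmic high-fat diet value was -0.19.

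**Figure D3:**
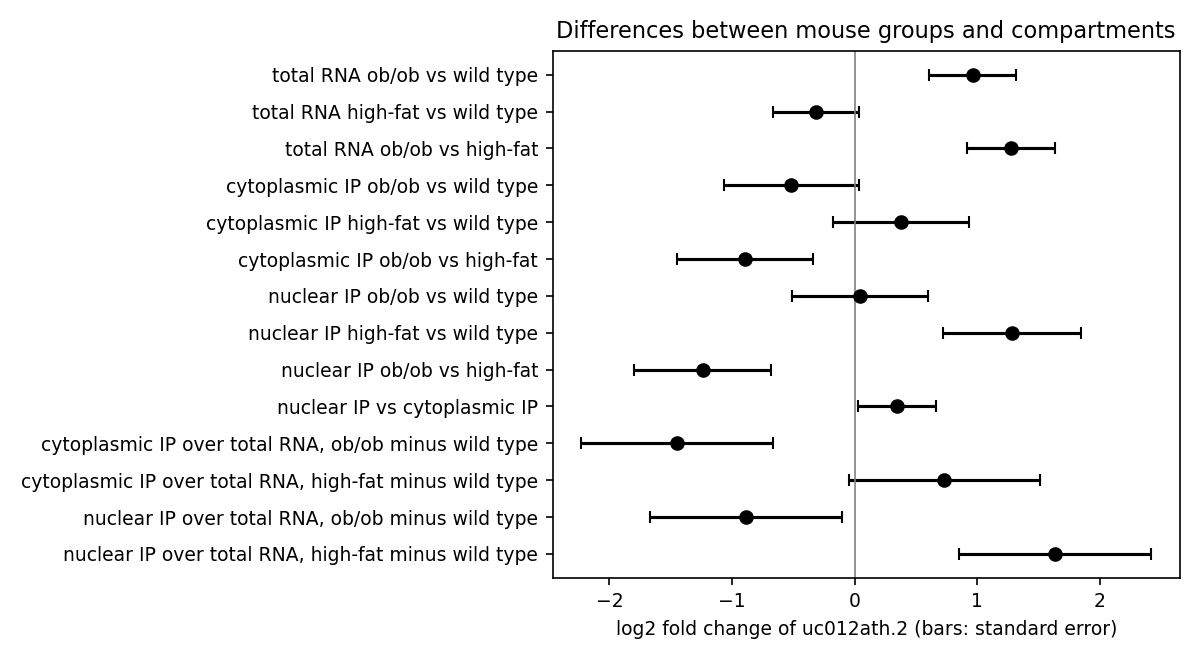
Log2 fold change of uc012ath.2 in each tested comparison from edgeR, with the standard error as a bar, and the first-named group over the second. No comparison passed an adjusted p of 0.05 in these fits, and the largest values are 1.64 for the nuclear high-fat diet double difference and -1.45 for the cytoplasmic ob/ob one.

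The nuclear IP was compared with the cytoplasmic IP over the 3 mouse groups. Because a share is bounded, the log2 ratio of the cluster's counts to all other counts was used beside the fit. It averaged -1.57 ± 0.59 in nuclear IP and -2.28 ± 0.65 in cytoplasmic IP (SD, n = 6 each), a difference of 0.71 with an exact two-sided permutation p of 0.076. Leaving out each of the 12 libraries in turn gave 0.50 without nuclear high-fat diet replicate 2 (exact permutation p = 0.15) to 0.90 without cytoplasmic high-fat diet replicate 2 (exact permutation p = 0.022). The p was under 0.05 in 2 of the 12, this last one and without cytoplasmic wild-type replicate 1 (0.84, exact permutation p = 0.043). With TMM scaling the log2 fold change was 0.35 ± 0.32, with an edgeR adjusted p of 0.36, where 64.6% of clusters passed. By library size it was 0.51 (edgeR adjusted p = 0.095), and by library size without the cluster's own counts 0.63 (edgeR adjusted p = 0.064). Leaving out 1 library gave 0.15 to 0.67 with TMM scaling, the lowest without cytoplasmic high-fat diet replicate 1 and the highest without cytoplasmic high-fat diet replicate 2.

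The clusters most like uc012ath.2 were sought among the other 3151 of these, by Pearson's r of log2 counts over all counts outside uc012ath.2. Over the 18 units of IP and total RNA the highest were uc029sug.1 (532 nt, 1 isoform), with r of 0.987, and uc009sgd.1 (3881 nt for its most counted of 2 isoforms), with 0.984. The median over all clusters was 0.18. Much of this r comes from the gap between IP and total RNA, and 404 clusters exceeded 0.8. After the mean of each kind of library was taken away, the same 2 clusters led, with r of 0.867 for uc009sgd.1 and 0.861 for uc029sug.1. They were then the only 2 of 3151 clusters above 0.8, and the next had 0.624. These coefficients are descriptions over units that share their libraries' composition.

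Within one kind of library the coefficients of these 2 clusters are part of what chose them, and are given as a description only. For uc029sug.1, r was 0.908 over the 6 nuclear IP units, 0.741 over the 6 cytoplasmic IP units and 0.986 over the 6 total RNA units. For uc009sgd.1 it was 0.917, 0.792 and 0.985. Over the 6 total RNA units uc008yaz.2, the most counted cluster there, also reached 0.770, against -0.731 in nuclear IP and -0.233 in cytoplasmic IP. The gaps between libraries of one replicate number ranked within the first 6 by size for all 3 clusters in the same 3 of 6 pairs. The units that chose the companions include sums of these libraries, so the gaps are not independent of that choice and are a description too. In ob/ob replicate 1, uc009sgd.1 and uc029sug.1 ranked 2 and 3 of 3152 clusters after uc012ath.2, with gaps of 3.75-fold and 3.70-fold. In ob/ob replicate 2 they ranked 4 and 6, with 1.85-fold and 1.77-fold against 2.25-fold for uc012ath.2. In high-fat diet replicate 2 they ranked 3 and 2, with 1.41-fold and 1.48-fold. In high-fat diet replicate 1 the log2 gap of uc029sug.1 was 0.070, opposite to the -0.15 of uc012ath.2, and that of uc009sgd.1 was -0.11. In the wild-type pairs the companions' gaps were 1.01-fold to 1.10-fold.

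**Figure D4:**
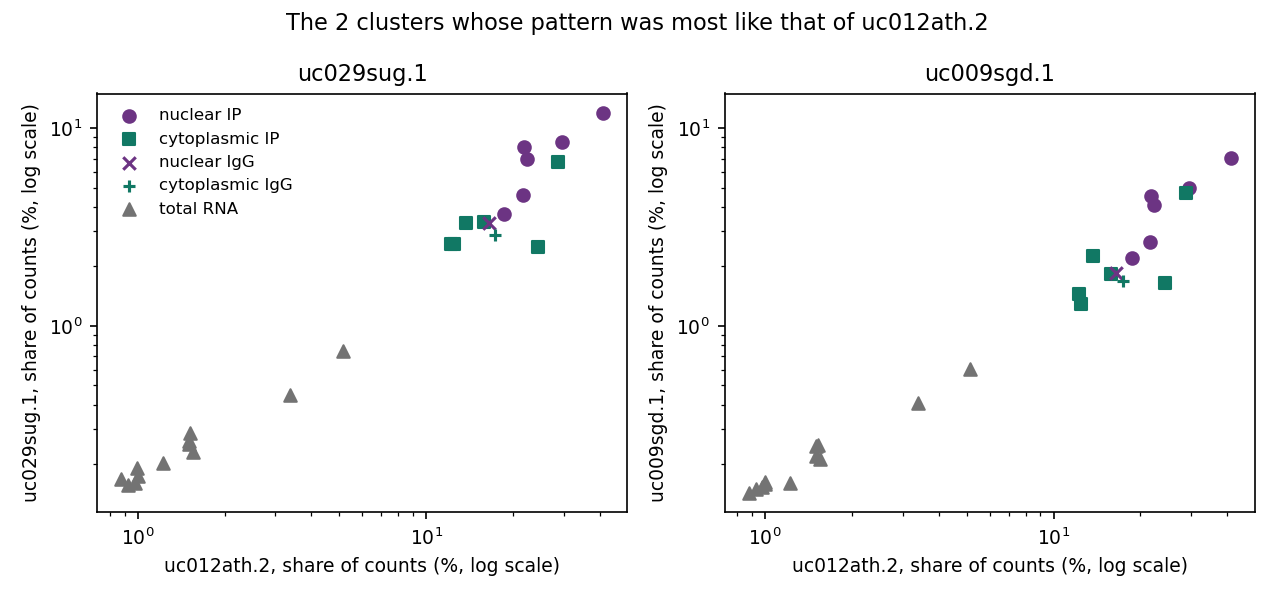
Share of counts of uc029sug.1 (left) and uc009sgd.1 (right) against that of uc012ath.2, in percent on log axes, with 1 point per library. Total RNA lies at the lower left and IP with IgG at the upper right, and the ob/ob total RNA libraries with 5.14% and 3.38% of uc012ath.2 stand above the other total RNA libraries on both axes.

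Of the proportions among the 3 clusters, only that of uc029sug.1 in nuclear IP and in total RNA had ranges that did not overlap. Its range in cytoplasmic IP overlapped both. The counts of uc029sug.1 were 19.7% to 36.7% of those of uc012ath.2 in nuclear IP, 10.2% to 24.1% in cytoplasmic IP, 20.2% in nuclear IgG, 16.6% in cytoplasmic IgG and 13.3% to 19.2% in total RNA. Each nuclear IP library lay above each total RNA library, the nearest being wild-type nuclear IP with 19.7% and high-fat diet total RNA with 19.2%. The 20.2% of nuclear IgG lay within the nuclear IP range. For uc009sgd.1 the ranges were 11.8% to 20.9% in nuclear IP, 6.77% to 16.3% in cytoplasmic IP and 11.7% to 16.5% in total RNA, and these overlapped. Its proportion was 11.3% in nuclear IgG, below both the nuclear IP and the total RNA range, and 9.73% in cytoplasmic IgG. The proportion of uc029sug.1 was highest in nuclear IP of ob/ob, with 36.7% and 31.0%, next to 28.7% and 29.1% in high-fat diet and 19.7% and 21.3% in wild type. The lowest proportions were those of cytoplasmic IP of wild-type replicate 1, with 10.2% for uc029sug.1 and 6.77% for uc009sgd.1, where uc012ath.2 itself took 24.3% of the counts.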

How the data were processed

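Liver RNA was sequenced as total RNA, hnRNPK IP and IgG, and per the labels' protocols the kit was TruSeq RNA. The authors used RSEM 1.2.8 for the deposited expected counts, TPM and transcript lengths. Per the submitters' processing notes, TopHat2 2.0.10, Bowtie2 2.1.0, bcl2fastq and SAMtools were used too, in no stated role, with build mm10. RSEM divides reads among similar transcripts, so a cluster that shares sequence with others is uncertain.

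Expected counts were summed per cluster, and per replicate number in total RNA, then rounded, giving 18 units. Tests used edgeR 4.0.16 in R 4.3.3 (TMM, filterByExpr, quasi-likelihood), fitted on 6 total RNA units or all 18 units, with DESeq2 1.42.0 as an alternative. IgG entered no fit. Standard errors are the absolute log2 fold change over the square root of F. The steps were tested on simulated counts, only with changes larger than the main fitted values of uc012ath.2, so power at its sizes was not examined. Likeness and gap values use log2 with 0.5 added. The cluster, comparisons and rules were chosen with earlier results of these data known. Named clusters are the most counted one of total RNA and those first in likeness. In cytoplasmic IP of ob/ob, uc008svw.1 had rank 2 by count, with 3.42% and 3.81%, and was not followed further. Alternatives were other scalings, no filter, each library series, a replicate block and each unit left out. Isoform make-up could not be analysed with 1 isoform, nor markers without symbols.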

Additional observations from a re-analysis of the deposited data

Results flagged for a closer look

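Of the 4 high-fat diet total RNA libraries, the library numbered 1 of replicate 2 stood apart, with 1.55% of its counts in uc012ath.2 against 0.876%, 0.975% and 0.928% in the others. Its gap to the next library was 0.855 of the group's range, above Dixon's critical value of 0.829. That value assumes 4 independent samples, while these are 2 libraries for each of 2 replicate numbers. Chance flags about 1 in 20 groups, and 3 groups were examined. The ob/ob libraries spread more widely, from 5.14% to 1.22%, with a gap of 0.449 of their range.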

How the results depend on the processing

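For the 14 fitted comparisons, 4 of 181 alternative values passed the threshold, all in the direction first found. In total RNA, DESeq2 called the ob/ob difference from wild type at 0.95 and from high-fat diet at 1.28, and in nuclear IP the high-fat diet difference from wild type at 1.34. It called 2104, 1433 and 1463 clusters in these comparisons, against 244, 76 and 726 with edgeR, and 233 to 400 in the double differences, against 1 to 4. With each library its own replicate, ob/ob against high-fat diet in total RNA was 1.43, with 4885 clusters called. The sign turned 8 times in 7 comparisons. With the total RNA libraries numbered 2, the nuclear double difference of ob/ob became 0.065. Leaving out 1 unit gave -0.63 to 0.081 for high-fat diet against wild type in total RNA, -0.91 to 0.031, -0.54 to 0.95 and -1.47 to 0.073 for ob/ob against wild type, high-fat diet against wild type and ob/ob against high-fat diet in cytoplasmic IP, -0.085 to 0.23 for ob/ob against wild type in nuclear IP, and -0.19 to 1.31 for the cytoplasmic double difference of high-fat diet. The sign held in total RNA for ob/ob against wild type (0.65 to 1.36) and against high-fat diet (1.05 to 1.55). It also held in nuclear IP for high-fat diet against wild type (0.73 to 1.69) and ob/ob against high-fat diet (-1.64 to -0.65). For the nuclear minus cytoplasmic log2 ratio to other counts the range was 0.50 to 0.90. The cause of these changes was not tested. As a share of TPM, which is per length, the cluster averaged 7.31% in nuclear IP, 4.43% in cytoplasmic IP and 0.507% in total RNA, against 25.8%, 17.9% and 1.65% of counts. In total RNA the TPM mean is over 12 single libraries and the count mean over 6 units of summed libraries.

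Same-numbered units of one mouse group deviated together in ob/ob and wild type (Pearson's r of 0.31 to 0.44 across clusters) but not in high-fat diet (-0.13 to 0.11). The numbers were not taken as pairs in the main fits. Those fits treat the units as independent and so leave out the correlation in ob/ob and wild type. For uc012ath.2 itself, log2 CPM after TMM scaling was higher in replicate 2 throughout high-fat diet. Replicate 1 less replicate 2 was -0.49 in total RNA, -1.53 in cytoplasmic IP and -1.02 in nuclear IP. In that order it was 0.32, -0.47 and 0.030 in ob/ob and -0.77, 0.94 and -0.35 in wild type, with mixed signs. With a replicate block no comparison passed for this cluster, and the nuclear against cytoplasmic fold change was 0.37 (edgeR adjusted p = 0.16). The paired permutation of the ratio to other counts gave an exact p of 0.063, with nuclear higher in 5 of 6 pairs. Depth did not limit the cluster itself, whose lowest count was 58732.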

Other observations

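Of the 16 clusters with the nearest numbers to that of uc012ath.2, 12 had 0 counts over the 26 libraries together and the most counted had 7. The tables do not say whether cluster numbers follow genome order.

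The effective length that RSEM used, which is below the transcript length, differed between kinds of library. For uc012ath.2 it was shorter than the 5818 nt by 48.4 to 58.8 nt in nuclear IP, 60.1 to 67.8 nt in cytoplasmic IP, 51.1 to 70.0 nt in total RNA, 56.6 nt in nuclear IgG and 86.5 nt in cytoplasmic IgG. The ranges of nuclear and cytoplasmic IP did not overlap. In ob/ob replicate 1 of total RNA the value was 56.9 nt in the library numbered 1 and 51.1 nt in the library numbered 2, and in ob/ob replicate 2 it was 58.9 and 59.2 nt. Its part in the shares was not tested.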
